A study of Rattus norvegicus with 4 samples.

Results

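The report describes 52 genes of DNA replication and the replication checkpoint in m6A-seq of neonatal rat cardiac fibroblasts (CFs). They were chosen by symbol, as the subunits and regulators of the replication fork, with earlier results of these data known. Their NCBI gene IDs were looked up in 2 lists of m6A peaks that together cover 8729 genes. The CFs were primary cultures from the hearts of Sprague-Dawley pups no more than 3 days old. For 48 h they carried either an empty plasmid (Vector, genotype WT in the labels) or a plasmid with rat FTO cDNA (FTO, labelled FTO overexpression), which encodes the demethylase that removes m6A from RNA. Each group has 1 m6A-IP library, made from RNA pulled down with an m6A antibody, and 1 input library, and the authors deposited 1 list of peaks for each group. A peak is a stretch of RNA in which the pulled-down reads exceeded the input. The transfection was transient, and the share of cells that took up the plasmid and the number of animals behind each culture are not given in the labels. With 1 list per group no difference has a replicate check, no test was made, and the intervals given below cover counting error only. From pathway analysis of the same m6A-seq, the paper proposes that FTO overexpression lowered pathways linked to DNA replication and the cell cycle. The difference described below is therefore not independent of that result. From RNA-seq, the paper also reports lower cell proliferation terms in FTO-overexpressing CFs. Under hypoxia it found less proliferation with FTO, by a cell viability assay and by EdU staining of newly made DNA. Whether a lower share of dividing cells bears on the listed peaks was not tested.

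Before a cell copies its DNA, the origin recognition complex (ORC), Cdc6 and Cdt1 load the ring-shaped MCM2-7 helicase onto origins. Cdc45 and the GINS complex then switch the helicase on, primase and the DNA polymerases copy both strands, and the clamp Pcna, placed by replication factor C (RFC), holds the polymerases on DNA. Claspin, Timeless and Tipin travel with the fork and pass signals of stalled forks from Atr to Chek1, the replication checkpoint. Most of these genes are transcribed in proliferating cells as they enter S phase. m6A is a modification of the RNA itself and can alter how long an mRNA lasts.

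The lists give the length in bp of each peak, an Ensembl transcript and a gene ID, and they hold 21249 peaks for Vector and 17796 for FTO, or 83.7% as many. The lists hold no read numbers or peak heights. The depth is therefore unknown, and a change in transcript level cannot be told apart from a change in methylation. The transfected gene Fto had 3 Vector peaks and 9 FTO peaks. Of 12 fibroblast markers, 6 had Vector peaks and 6 had FTO peaks, and Col1a1, Col1a2, Col3a1, Dcn and Vim had none in either list. Of 8 cardiomyocyte markers, 5 had peaks in both lists, with 22 peaks for Vector and 25 for FTO. Of 5 leukocyte markers, 2 had Vector peaks and 3 had FTO peaks, and of 5 endothelial markers 0 and 1. A peak list does not give levels, so the purity of the cultures was not tested.

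The DNA replication genes carried far fewer listed peaks after FTO transfection, with 89 for Vector and 33 for FTO. FTO peaks therefore came to 37.1% of the Vector number, beside 83.7% for the lists as a whole. Of the 52 genes, 24 had Vector peaks and 15 of these also had FTO peaks, while 28 had no peak in either list. Of the 24 genes, 18 had fewer FTO than Vector peaks, 5 had as many and 1 had more. Over all genes with a peak, fewer FTO peaks were listed for 41.4% and more for 21.2%. No FTO peak was listed for 9 of the 24 genes, namely Mcm3, Cdc6, Mcm10, Gins4, Pola1, Pola2, Rfc2, Rfc5 and Rpa3, whereas 18.1% of all genes with a Vector peak had none in the FTO list. None of the 52 genes had peaks in the FTO group alone. In the whole lists 7894 of the 8729 genes had a Vector peak, and only the rest had FTO peaks alone. Such genes are few, so their absence among the 24 was not read as a result.

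**Figure D1:**
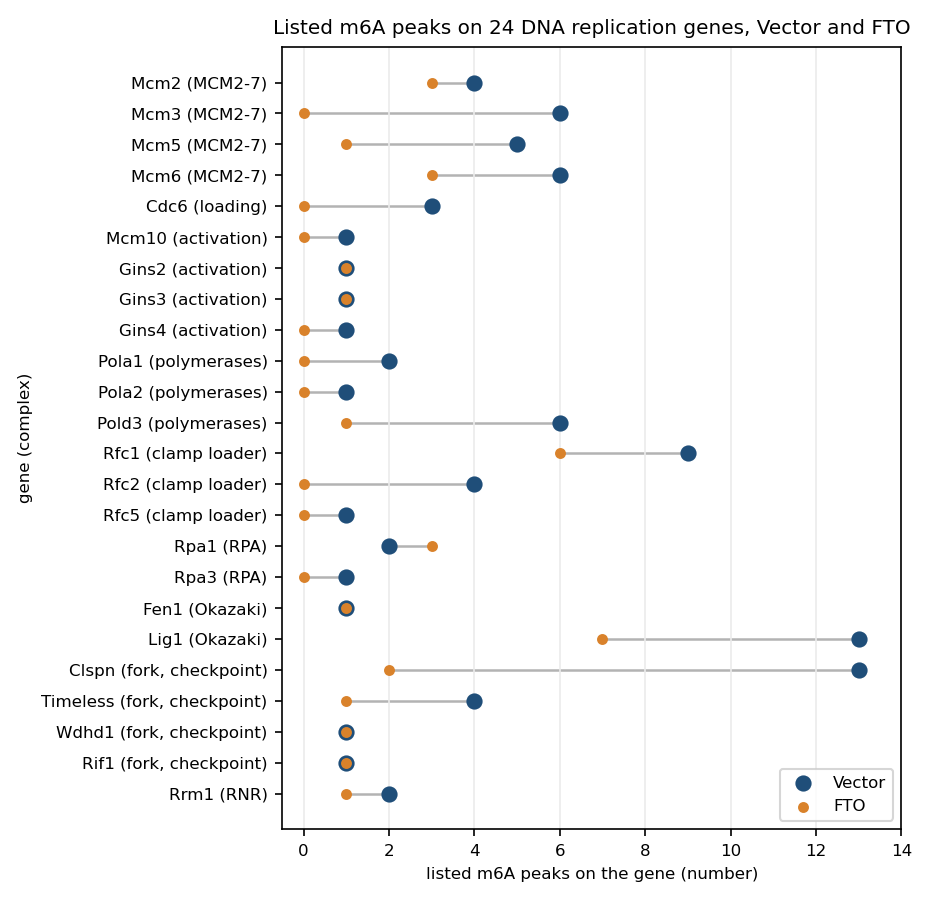
Listed m6A peaks on each of the 24 DNA replication genes that had any, with the number of peaks on the x axis and the gene and its complex on the y axis. Large blue points are the Vector list and small orange points the FTO list, 1 list each with no error bar. The orange point lies to the left of the blue one for 18 genes, with the widest gap for Clspn (13 and 2), on it for 5 and to its right for Rpa1 alone.

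Because a gene with many Vector peaks has more room to differ, the replication genes were set beside all genes with a similar number of Vector peaks. Of the 10 replication genes with 1 Vector peak, 5 had no FTO peak (50%), beside 31.5% of the 3341 genes of that kind. The 8 genes with 2 to 5 Vector peaks had 26 Vector peaks and 9 FTO peaks, and 7 of them had fewer FTO peaks (87.5%, beside 53% of 3694 genes). All 6 genes with 6 or more Vector peaks had fewer FTO peaks, where 70.1% of 859 genes did. These 6 genes, Clspn, Lig1, Rfc1, Mcm3, Mcm6 and Pold3, held 53 of the Vector peaks and 19 of the FTO peaks, which is 35.8% as many, beside 78% for all genes of that kind. The lower number of FTO peaks was therefore present in each class of Vector peak number.

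**Figure D2:**
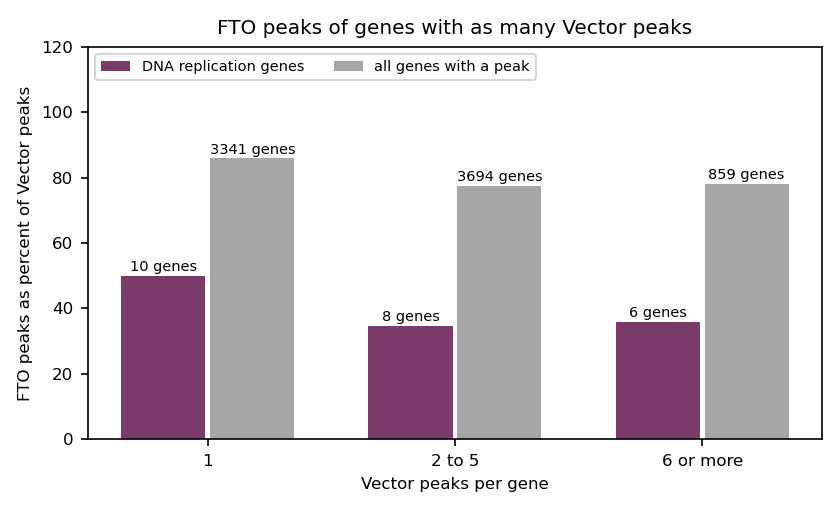
FTO peaks as a percentage of Vector peaks (y axis), for genes with 1, 2 to 5, or 6 or more Vector peaks (x axis). Purple bars are the DNA replication genes and grey bars all genes with a peak, with the number of genes above each bar and no error bar. The purple bars stand at 50%, 34.6% and 35.8% and the grey bars at 85.9%, 77.6% and 78%.

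Peaks were next paired between the lists 1 to 1 by gene and exact length, because positions were not used. Of the 89 Vector peaks on the replication genes, 23 had an equal-length FTO peak, which is 25.8% (95% Wilson interval 17.9% to 35.8%), beside 57.3% of all Vector peaks. Seen from the FTO group, 23 of 33 peaks had an equal-length Vector peak, which is 69.7% (52.7% to 82.6%), beside 68.4% of all FTO peaks. Both intervals treat peaks as independent, which peaks of 1 gene are not, so they may be too narrow and were not used as a test. The peaks that were still listed after FTO thus kept their Vector length about as often as in the whole list, and the difference lay in the 66 Vector peaks without a partner. The peak numbers given by the peak caller follow the same order in both lists, upward in 11814 of 11820 steps between neighbouring pairs, so that they could be used as the order along a chromosome, whatever the strand of the gene. All 23 pairs on the replication genes stood in the same order in both groups.

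One feature that many of these genes share is the E2F motif in the promoter, the site of the E2F factors that drive S phase genes. The motif was not itself used to choose them, but a choice of replication genes, mostly S phase genes, by itself favours it. It was searched as TTTCCCGC, TTTCGCGC, TTTGCCGC and TTTGGCGC on both strands in the RefSeq promoter windows of the GRCr8 assembly, from 250 bases before to 50 bases after the start of a gene. A window was found for 45 of the 52 genes, and 24 of the 45 (53.3%) held the motif, beside 2.37% of all 27457 genes with a window. It was present in 14 of 24 replication genes without a peak (58.3%), in 10 of 21 with a Vector peak (47.6%) and in 2 of 6 with Vector peaks alone (33.3%). Of the 6 genes with the most Vector peaks, Mcm3, Mcm6, Pold3, Lig1 and Clspn held it and Rfc1 did not. The matches of these 5 genes are shown because the genes carry most of the difference in peaks, with the motif in capitals, written 5′ to 3′ on the strand of the gene. The matches in Mcm6 overlap, and the same bases are counted in both. Promoters were not measured in this experiment, and a match is not a bound site.
Mcm3, chr9:30733734-30733763, minus strand: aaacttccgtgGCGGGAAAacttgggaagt
Mcm3, chr9:30733715-30733744, minus strand: acttgggaagtTTTCGCGCcagggaggagt
Mcm6, chr13:42404473-42404502, minus strand: tggcgtctgctTTTGGCGCgaaattagcgt
Mcm6, chr13:42404469-42404498, minus strand: gtctgcttttgGCGCGAAAttagcgtgtgg
Pold3, chr1:163868763-163868791, minus strand: gagcgaagctgTTTCCCGCcggcgggagc
Lig1, chr1:83243178-83243207, plus strand: ccaaggtctgcGCGCGAAAtctgtgtggcg
Clspn, chr5:144134647-144134676, plus strand: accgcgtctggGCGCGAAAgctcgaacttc

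The MCM2-7 helicase, which unwinds the parental strands, had 21 Vector peaks and 7 FTO peaks on 4 of its 6 subunits, and all 4 had fewer FTO peaks. Mcm3 had 6 Vector peaks, in order 107, 141, 151, 175, 239 and 209 bp, and no FTO peak. Mcm6 had Vector peaks of 456, 140, 156, 136, 147 and 219 bp and FTO peaks of 406, 147 and 219 bp. The last 2 peaks of Mcm6 were thus the same in both groups, the 3 peaks before them were listed in the Vector group alone, and the first listed peak was 456 bp in one list and 406 bp in the other. Mcm5 had Vector peaks of 286, 156, 128, 143 and 128 bp and 1 FTO peak of 177 bp, a length it did not have in the Vector group. Mcm2 kept most of its peaks, with Vector peaks of 135, 261, 233 and 40 bp, of which all but the first were listed again in the FTO group. Mcm4 and Mcm7, the other subunits of the ring, had no peak in either list.

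The steps before and after helicase loading showed fewer peaks. No peak was listed in either group for Orc1, Orc2, Orc3, Orc4, Orc5 and Orc6, the subunits of ORC, nor for Cdt1, the partner of Cdc6 in loading, and Gmnn, which encodes the Cdt1 inhibitor geminin. Cdc6, the ATPase that loads the helicase together with ORC, had Vector peaks of 127, 194 and 991 bp and no FTO peak. Of the activation factors, Mcm10 had a Vector peak of 345 bp and Gins4, a GINS subunit, one of 137 bp, and neither had an FTO peak. The other GINS genes with a peak had an FTO peak of a slightly different length. Gins2 had a peak of 728 bp for Vector and of 744 bp for FTO, and Gins3 of 1757 bp and 1686 bp. Cdc45 and Gins1 had none.

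Among the polymerases, 9 Vector peaks stood against 1 FTO peak. Pold3, an accessory subunit of DNA polymerase delta, had Vector peaks of 79, 110, 166, 73, 262 and 133 bp, and the peak of 110 bp was the one listed in the FTO group. Pola1, the catalytic subunit of DNA polymerase alpha, had Vector peaks of 81 and 53 bp on 2 transcripts, and Pola2, its accessory subunit, had 1 of 488 bp. Neither had an FTO peak. Prim1 and Prim2, which form the primase, Pold1, Pold2, Pole and Pole2 had no listed peak. Outside the 52 genes, Pole3 and Pole4, small subunits of DNA polymerase epsilon, had 1 peak each in both lists.

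The clamp loader RFC, which opens Pcna and closes it around DNA, had 14 Vector peaks and 6 FTO peaks on 3 of its 5 subunits. Rfc1, the large subunit, had Vector peaks of 129, 76, 123, 233, 272, 180, 358, 192 and 1331 bp. In the FTO group it had 129, 88, 180, 358, 115 and 192 bp. The peaks of 129, 180, 358 and 192 bp were common to both lists, the long peak of 1331 bp at the end was not, and 88 and 115 bp appeared in the FTO group alone. Rfc2 had Vector peaks of 550, 158, 102 and 132 bp and Rfc5 of 140 bp, and neither had an FTO peak. Pcna, Rfc3 and Rfc4 had no listed peak.

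RPA, which coats single-stranded DNA at the fork, was the exception, with 3 peaks in each group. Rpa1, its large subunit, had Vector peaks of 87 and 132 bp, and both were listed again in the FTO group beside one of 93 bp. Rpa3, the small subunit, had 1 Vector peak of 125 bp and none after FTO, and Rpa2 had none in either list. Rpa1 was the only one of the 52 genes with more FTO than Vector peaks, and the extra peak was under 100 bp.

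The enzymes that join Okazaki fragments, the short pieces of the lagging strand, kept more of their peaks, with 14 in the Vector group, 8 in the FTO group and 7 common to both. Fen1, the flap nuclease that trims the fragments, had a single peak of 1935 bp in both lists. Lig1, the ligase that seals them, had 13 Vector peaks and 7 FTO peaks. The third to the eighth Vector peak, of 93, 136, 112, 93, 108 and 126 bp, were the first to the sixth FTO peak, without a number missing between them in either list. The Vector peaks on both sides of this stretch, 108 and 71 bp before it and 116, 111, 72, 54 and 230 bp after it, had no partner, and the seventh FTO peak was 153 bp. The Vector peaks of Lig1 with a partner thus formed one stretch, and those on either side of it had none. Dna2, another flap nuclease, had no listed peak.

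The fork protection and checkpoint genes had 19 Vector peaks and 5 FTO peaks (26.3% as many), and 3 of the 19 had an equal-length FTO peak (15.8%). Most of the difference was in Clspn, which encodes Claspin, the adaptor through which Atr activates Chek1. Its 13 Vector peaks were, in order, 157, 97, 428, 147, 575, 192, 227, 230, 98, 165, 128, 181 and 908 bp. In the FTO group only those of 428 and 575 bp were listed. The difference of -11 peaks was equalled or exceeded by 6 of the 8729 genes, Clspn included. Timeless had Vector peaks of 152, 202, 178 and 888 bp and kept the longest, of 888 bp. Rif1, which controls the timing of origin firing, had 1 peak of 2184 bp for Vector and of 2178 bp for FTO. Wdhd1, which links the helicase to DNA polymerase alpha, had 1 peak of 301 bp and 1 of 446 bp. Tipin, Chek1, Atr and Topbp1, the activator of Atr, had no listed peak. Of the ribonucleotide reductase genes, which supply deoxynucleotides, Rrm1 had Vector peaks of 189 and 616 bp and kept that of 616 bp, and Rrm2 had no listed peak.

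**Figure D3:**
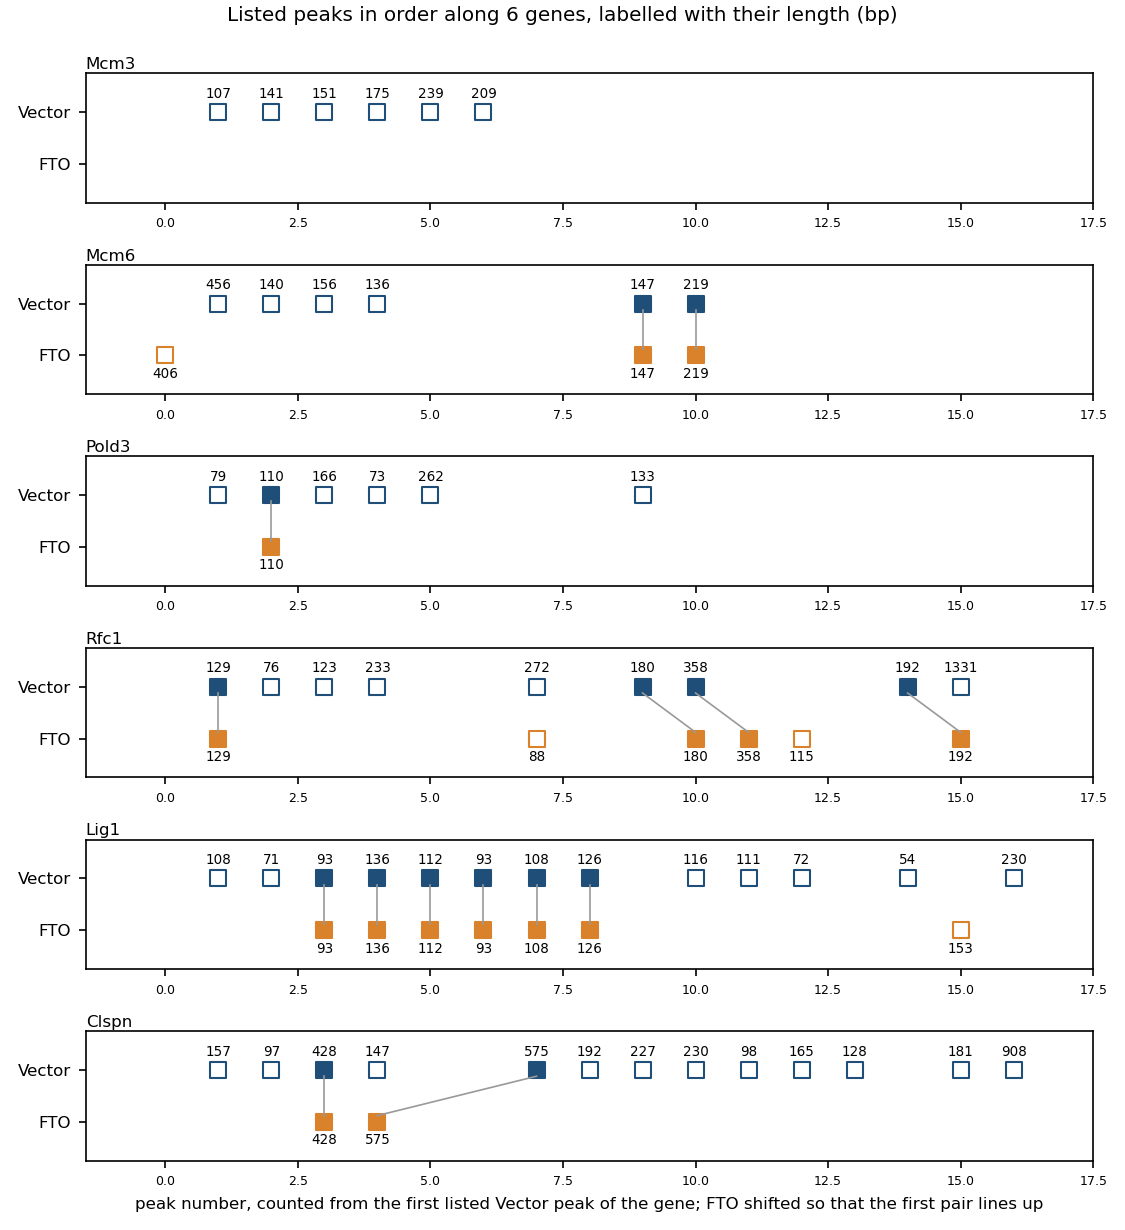
Listed peaks in order along the 6 genes with 6 or more Vector peaks, Vector above and FTO below, each labelled with its length in bp. The x axis counts peak numbers from the first Vector peak of the gene, with the FTO row shifted so that the first pair lines up, and gaps are numbers that were not listed for the gene. Filled squares joined by lines are equal-length pairs and open squares have no partner, which shows the run of 6 pairs in the middle of Lig1, the 2 remaining peaks of Clspn and the empty FTO row of Mcm3.

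Genes whose only Vector peak was long more often had an FTO peak. Of the 10 genes with a single Vector peak, the 4 whose peak was 500 bp or longer, Fen1, Gins2, Gins3 and Rif1, all had an FTO peak. Of the 6 with a shorter peak, 1 had an FTO peak, Wdhd1. Over all genes with a single Vector peak, 78.7% of 1774 with a peak of 500 bp or longer and 57% of 1567 with a shorter one had an FTO peak, so the order was the same in the whole list. The limit of 500 bp was chosen after the values were seen. Counted over peaks, the replication genes had 45 Vector peaks and 13 FTO peaks of 100 bp to under 200 bp (28.9% as many). FTO peaks came to 42.9% of the Vector number under 100 bp, to 36.8% from 200 bp to under 500 bp and to 63.6% (11 and 7) at 500 bp or longer, so the shares did not rise steadily with length. Over all genes they stood, from the shortest to the longest class, at 70.5%, 77.1%, 88% and 95.3%. The median length on the replication genes was 152 bp for Vector and 177 bp for FTO, below the 203 bp and 228 bp of the whole lists. Together their peaks covered 25438 bp in the Vector group, at a mean of 285.8 bp, and 13284 bp in the FTO group, at a mean of 402.5 bp.

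**Figure D4:**
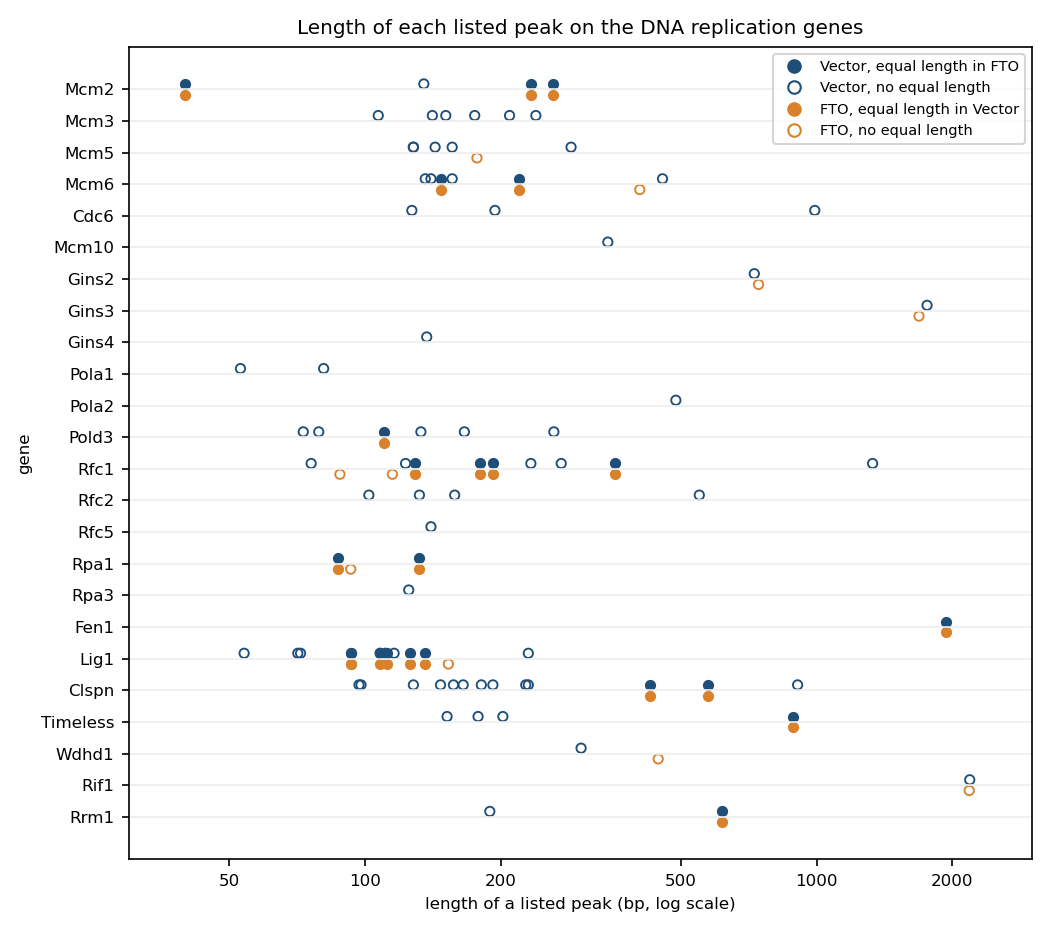
Length of every listed peak on the 24 genes, in bp on a log x axis, with Vector in blue above FTO in orange for each gene on the y axis. Filled points have an equal-length partner in the other list and open points have none. Most open blue points lie below 500 bp, while single long peaks such as those of Fen1 (1935 bp), Rif1 (2184 and 2178 bp) and Gins3 (1757 and 1686 bp) appear in both rows. The points of Rif1 and Gins3 are open because their lengths differ. Long Vector peaks of Rfc1 (1331 bp), Cdc6 (991 bp), Clspn (908 bp) and Rfc2 (550 bp) have no partner in the FTO row.

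The peak numbers also run through calls that are not in the lists, up to 59557 for Vector and 52060 for FTO, 87.4% as many. For each of the 24 genes, the numbers between the nearest common peaks of other genes on either side were counted in both lists, as a window around the gene. The 24 windows held 414 numbers for Vector and 304 for FTO (73.4%), of which 138 and 58 were listed peaks (42%) and 276 and 246 were not (89.1%). Over the whole lists the numbers that were not listed stood at 89.4%, so that beside the whole lists the shortfall in the sum of the windows lay in the listed peaks. The windows end at common peaks of other genes and so hold few of them, which makes the whole lists an unlike background. Listed and unlisted shares for the windows of all genes are not given here. The windows were placed around genes with a listed Vector peak, a choice that by itself favours fewer listed FTO peaks. The sum joins unlike changes. In the windows of the 6 genes with 6 or more Vector peaks, listed peaks went from 69 to 22 and unlisted numbers rose from 79 to 99. In the windows of the 9 genes with Vector peaks alone, unlisted numbers went from 108 to 104. Single windows differed too, with unlisted numbers going from 14 to 3 around Gins3 and from 10 to 22 around Lig1. What became of single calls was not tested. In 21 of the 24 windows the FTO list counted fewer numbers, beside 65.7% of the windows of all genes with a Vector peak. What the unlisted numbers stand for is not given in the sources used here, and the windows also hold peaks of neighbouring genes, 49 for Vector and 25 for FTO.

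The genes differed in this respect. Around Clspn the numbers went from 33 to 19, around Mcm10 from 10 to 0, around Mcm5 from 11 to 6 and around Cdc6 from 7 to 2. The unlisted numbers went from 17 to 16 around Clspn, from 6 to 5 around Mcm5 and from 3 to 2 around Cdc6. Most of the difference around these 3 genes thus lay in listed peaks. Around Mcm10 the unlisted numbers went from 9 to 0. Between the peaks of 428 and 575 bp of Clspn, 3 numbers lay for Vector and 0 for FTO. Around Mcm3 there were still 22 numbers after 24, of which 7 had been listed for Vector and 0 for FTO. Around Lig1 the numbers went from 26 to 30 while the listed ones went from 16 to 8, and around Rfc2 from 8 to 11 while the listed ones went from 5 to 1. Around Rfc1 the numbers went from 32 to 26 and the listed ones from 11 to 6. For Lig1 and Rfc2, fewer listed peaks thus did not go with fewer numbered calls.

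**Figure D5:**
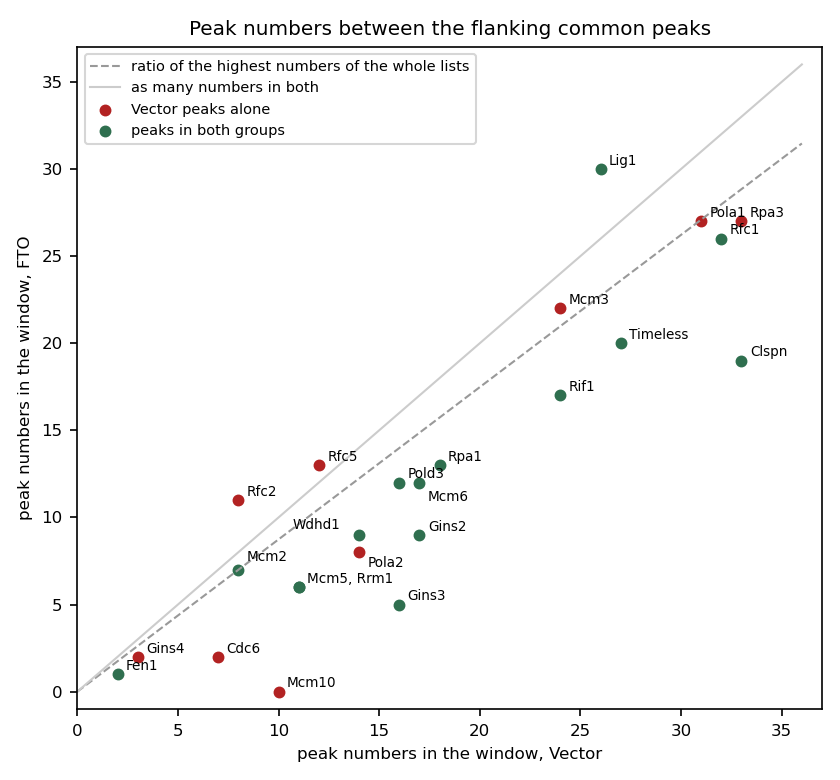
Peak numbers between the flanking common peaks of other genes, Vector on the x axis and FTO on the y axis, for the 24 genes with a Vector peak. Red points are genes with Vector peaks alone and green points genes with peaks in both groups. The solid line marks equal numbers and the dashed line the ratio of the highest numbers of the lists, with Clspn (33 and 19) and Mcm10 (10 and 0) well below it and Lig1 (26 and 30), Rfc2 (8 and 11) and Rfc5 (12 and 13) above the solid line.

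Other genes that act in replication were looked up for comparison, 53 genes of origin firing, the fork, the checkpoint, nucleotide supply and chromatin assembly. They had 89 Vector peaks and 53 FTO peaks (59.6%), with fewer FTO peaks for 20 genes, as many for 10 and more for 3. The 3 genes with more had 1 FTO peak each and no Vector peak. Of the 30 comparison genes with a Vector peak, 10 had no FTO peak, beside 18.1% of all genes with a Vector peak. Of the Vector peaks of the comparison genes, 43.8% had an equal-length FTO peak. These shares lay between those of the 52 genes above and those of the whole lists, and the difference from either was not tested. The 5 genes of these lists with the most peaks were Top1, which relieves the twist ahead of the fork, with 12 Vector and 7 FTO peaks, Dnmt1, the maintenance DNA methyltransferase, with 9 and 8, Tp53bp1, a damage checkpoint protein, with 8 and 7, Chaf1a, the large subunit of chromatin assembly factor 1, with 7 and 7, and Nasp, a histone chaperone, with 6 and 4. These 5 genes thus kept most of their peaks in number. Of the 52 genes, Lig1 (13 and 7) and Rfc1 (9 and 6) did so too, and Clspn, Mcm3, Mcm6 and Pold3 did not. Comparison genes with 3 or 4 Vector peaks kept a smaller share, except Smarcal1 (3 and 2). The others were Ticrr (4 and 1), Atad5 (4 and 1), Top2a (4 and 2), Rnaseh2b (3 and 0) and Chaf1b (3 and 0).

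Gene IDs decide which gene a peak was given to, and 4 of the genes with peaks overlap another protein-coding gene in the RefSeq table, namely Gins2, Fen1, Lig1 and Clspn. The partner of Lig1, Zswim9, had 2 peaks in each group, that of Clspn, C5h1orf216, had 1 in each and that of Fen1, Tmem258, had none. The partner of Gins2, Gse1, had 4 Vector peaks and 7 FTO peaks. Whether the counting used the strand is not given in the sources used here, so reads of overlapping genes may not have been separated.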

How the data were processed

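NRCFs of the Vector and FTO groups were profiled by m6A-seq, with 1 m6A-IP and 1 input library per group. Per the labels, reads were trimmed with cutadapt 1.9.3 and aligned with HISAT2 2.0.4 to rn6. The authors deposited the length of each peak in bp, listed without normalization beside a peak name with the prefix MACS, the Ensembl transcript and the NCBI ID of the gene. The settings of the peak caller and the annotation release are not given in the sources used here. Gene IDs were matched to symbols in the RefSeq table of GRCr8 (7489 of 7723 Vector IDs, 6920 of 7145 FTO IDs), and all 52 genes were found in it. Peaks without a gene ID, 248 and 213, were left out for these genes. Of those, 0 carried a transcript of a replication gene. Peaks were counted per gene and paired 1 to 1 by gene and length. Every replication gene is named, with its lengths where it had a peak, beside Fto and the 5 other replication genes with the most peaks. Genes that overlap a member, markers, Pole3, Pole4 and the comparison genes with 3 or 4 Vector peaks were named after their values were seen. The members, the lists and the pairing were chosen with earlier results of these data known, and the windows of peak numbers, the length limit of 500 bp and the promoter motif after the values were seen. The pairing code was run on simulated lists made by deleting peaks from the Vector list. This checks the code, and not whether peaks of equal length are the same peak. Python 3.11.15, numpy 2.4.6, pandas 2.3.3, scipy 1.17.1 and matplotlib 3.10.9 were used.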

Additional observations from a re-analysis of the deposited data

How the results depend on the processing

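The peak numbers, the numbers of genes with fewer, more or no FTO peaks, the paired shares and the median lengths over all replication genes were recomputed with a minimum peak length of 100 or 200 bp. All but the medians were also recomputed without Clspn, the genes with fewer or more peaks with FTO counts raised 1.19-fold to make up for the shorter list, and the paired shares with pairing by transcript, by lengths within 10% or by any peak of the same gene. Results by complex, by class, in windows and on motifs were not recomputed. Of 35 such values, 25 stayed within 1.5 times the count or within the 95% interval of the share or median. At a minimum of 200 bp, 30 Vector peaks and 14 FTO peaks were left, 11 genes had fewer FTO peaks and 0 had more, and the medians were 351.5 and 510.5 bp, since shorter peaks were removed. At a minimum of 100 bp, 0 genes had more FTO peaks. With any peak of the same gene as partner, 36% of the Vector peaks and 97% of the FTO peaks were paired, a rule that accepts every pair the exact rule accepts. Without Clspn, 76 Vector peaks and 31 FTO peaks remained. With raised FTO counts, 16 genes had fewer and 1 had more when a difference of at least 1 peak was asked for. When any difference counted, a setting chosen after seeing the data, 18 had fewer and 6 had more, since genes with equal counts then turn to more. No paired analysis was possible because both groups consist of 1 m6A-IP and 1 input library, and for the same reason no library could be left out. Depth is unknown, which limits how far any difference in the number of peaks can be read.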

Other observations

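Of the 33 FTO peaks on the replication genes, 20 had a length that is a multiple of 3 (60.6%, 95% Wilson interval 43.7% to 75.3%), beside 38% of all FTO peaks. Of the 89 Vector peaks on the same genes, 33 did (37.1%, 27.8% to 47.5%), beside 38.1% of all Vector peaks. Peaks of 1 gene are not independent, the pattern was noticed after the values were seen, and it was not tested.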
